A study of Rattus norvegicus with 9 samples.

Results

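Integrin and laminin chains were examined in the tibias of ovariectomized rats with and without resistance exercise. The members were 34 genes taken by name from the count tables, of the 22589 genes listed there, and comprised 8 integrin chains of leukocytes, 16 integrin chains of the matrix-binding kind and 10 laminin chains (5 α, 3 β and 2 γ). All 34 had enough counts to be tested. The RE/Ovx group had both ovaries removed at 10 weeks of age and then climbed a ladder 5 days a week, in 2 weeks of adaptation and 12 weeks of formal training, under a load that was raised to 100% of body weight. The NE/Ovx group had both ovaries removed and did no exercise. The Sham group lost only some fat beside the ovary and did no exercise. All were female Sprague-Dawley rats, and the left tibias of 3 rats a group were sequenced 24 weeks after the operation.

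Integrins are receptors of the cell surface built from an α and a β chain, and which chains pair decides what the receptor binds: collagen, laminin, fibronectin and other matrix proteins, or counter-receptors on other cells. Leukocyte integrins, such as those built on Itgb2, hold white blood cells to vessel walls and to each other. Laminins are trimers of an α, a β and a γ chain that form the sheet of the basement membrane around vessels, fat cells, muscle fibres and nerves, and bone marrow holds such membranes around its sinusoids and arterioles.

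The libraries held between 12967456 and 14946389 counts in the RE/Ovx rats, between 13568808 and 16671533 in the NE/Ovx rats and between 12297992 and 15123988 in the Sham rats. TMM factors, which correct for differences in RNA composition, ran between 0.962 and 1.04. The tissue held bone, cartilage and marrow together. Although the paper states that muscle was removed, skeletal muscle genes summed to 6250 to 9340 CPM in the RE/Ovx rats, 13100 to 16600 CPM in the NE/Ovx rats and 4890 to 14800 CPM in the Sham rats. Bglap (osteocalcin), a defining gene of osteoblasts, was at 243 to 373 CPM in the RE/Ovx rats, 169 to 340 CPM in the NE/Ovx rats and 58.8 to 100.2 CPM in the Sham rats. It was 1 of 8 osteoblast genes tested, of which 2 (Col1a1 and Bglap) passed the adjusted threshold given below in both groups against Sham. The median log2 fold change of the 8 was 0.51 in RE/Ovx and 0.46 in NE/Ovx against Sham, with 7 positive in each. Ibsp was the negative one, at -0.19 and -0.17. CPM are counts scaled to a common library size after TMM correction, and a group's values are given in the order of the rats' numbers (3, 5 and 8 for RE/Ovx, 6, 8 and 9 for NE/Ovx, and 7, 8 and 12 for Sham). In bulk tissue, fewer cells of a type and less RNA per cell cannot be told apart.

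Levels of different genes were compared as FPKM, which take gene length into account. Itgb1, the β chain that most matrix-binding α chains pair with, was the most abundant member, at a mean of 88.5 FPKM over the 9 rats. It was followed by 2 leukocyte chains, Itgam at 67.2 FPKM and Itgb2 at 53.5 FPKM. Itga6, a laminin receptor chain, Itgav, which binds vitronectin and related proteins, and Itga4, which binds Vcam1 and fibronectin, were at 35.6, 32.3 and 30.2 FPKM. Among the laminins Lamb2 was highest at 24.5 FPKM, then Lamc1 at 15.6 and Lama4 at 12.3 FPKM, whereas Lamc3 averaged 0.637 FPKM. Lama1, a chain of embryonic basement membranes, was lowest of all at 0.0685 FPKM, and its count ran between 1 and 17 reads a rat. The plot of FPKM by rat shows the chains spread over more than 3 powers of 10.

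**Figure D1:**
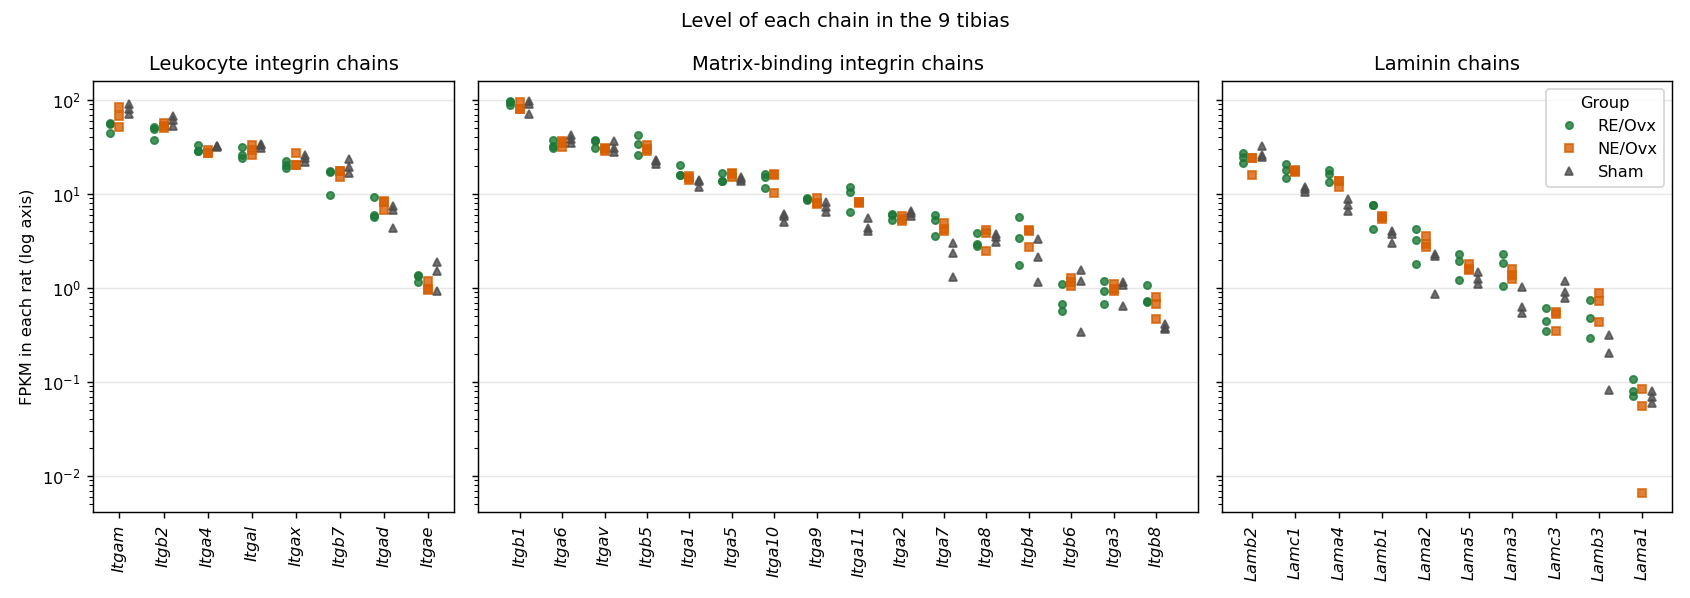
FPKM of each chain (log axis) in each rat, chains ordered by mean level within leukocyte integrins, matrix-binding integrins and laminins. Circles are RE/Ovx, squares NE/Ovx and triangles Sham rats. Itgb1 led at a mean of 88.5 FPKM and Lama1 was lowest at 0.0685 FPKM, and the Sham rats lay apart from both other groups for Itga10, Lama4, Lamc1 and Lamc3.

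In the RE/Ovx rats, 11 of the 34 chains passed the adjusted threshold against the Sham rats (edgeR's quasi-likelihood test, Benjamini-Hochberg adjusted p under 0.05 over 14520 genes). The 9 that rose were 5 matrix-binding integrin chains (Itga7, Itga10, Itga11, Itgb5, Itgb8) and 4 laminin chains (Lama3, Lama4, Lamb1, Lamc1), where 5.0% of all tested genes rose. The 2 that fell were the leukocyte chain Itgam and the laminin chain Lamc3, where 3.06% of all tested genes fell. In either direction 8.06% of all tested genes passed. Before adjustment, 18 chains had a p under 0.05, against 25.6% of all tested genes. The study took a fold change over 1.2 or under 0.83 together with a p under 0.05 from DESeq2. Here its criterion was applied to edgeR's p throughout, so the counts are not those of the study. In both comparisons that it reported, the study called more genes. By that criterion 11 chains were higher and 6 lower, and 14.0% of all tested genes were higher, 9.16% lower and 23.1% either. The 3 RE/Ovx values did not overlap the 3 Sham values for 14 chains, 9 above (background 14.9%) and 5 below (background 13%), and 27.8% of all tested genes were free of overlap in either direction.

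In the NE/Ovx rats, 3 of the 34 chains rose against the Sham rats, Itga10, Lama4 and Lamc1, where 1.03% of all tested genes rose. With edgeR 0 chains fell, where 0.200% of all tested genes did, while 14 chains in either direction had an unadjusted p under 0.05 (20.5% of all tested genes), and DESeq2 called 6 higher (Itga7, Itga10, Itga11, Lama4, Lamb3, Lamc1) and 1 lower (Lamc3). In either direction 1.23% of all tested genes passed the adjusted threshold. The criterion of the study gave 10 higher and 2 lower chains, with 11.3% and 6.52% of all tested genes and 17.9% in either direction. No overlap with the Sham rats was seen for 16 chains, 12 above (background 13.9%) and 4 below (background 11.4%), and for 25.3% of all tested genes. Both comparisons use the same 3 Sham rats, so their values are given side by side and are not separate evidence.

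The median log2 fold change of the 10 laminin chains was 0.66 in the RE/Ovx and 0.60 in the NE/Ovx rats against the Sham rats. The 16 matrix-binding integrin chains had medians of 0.14 and 0.12 in the same comparisons, and the 8 leukocyte chains medians of -0.31 and -0.24. All tested genes had medians of -0.01 and 0.00. In each comparison 7 of the 8 leukocyte chains were below zero, Itgad being the other one.

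**Figure D2:**
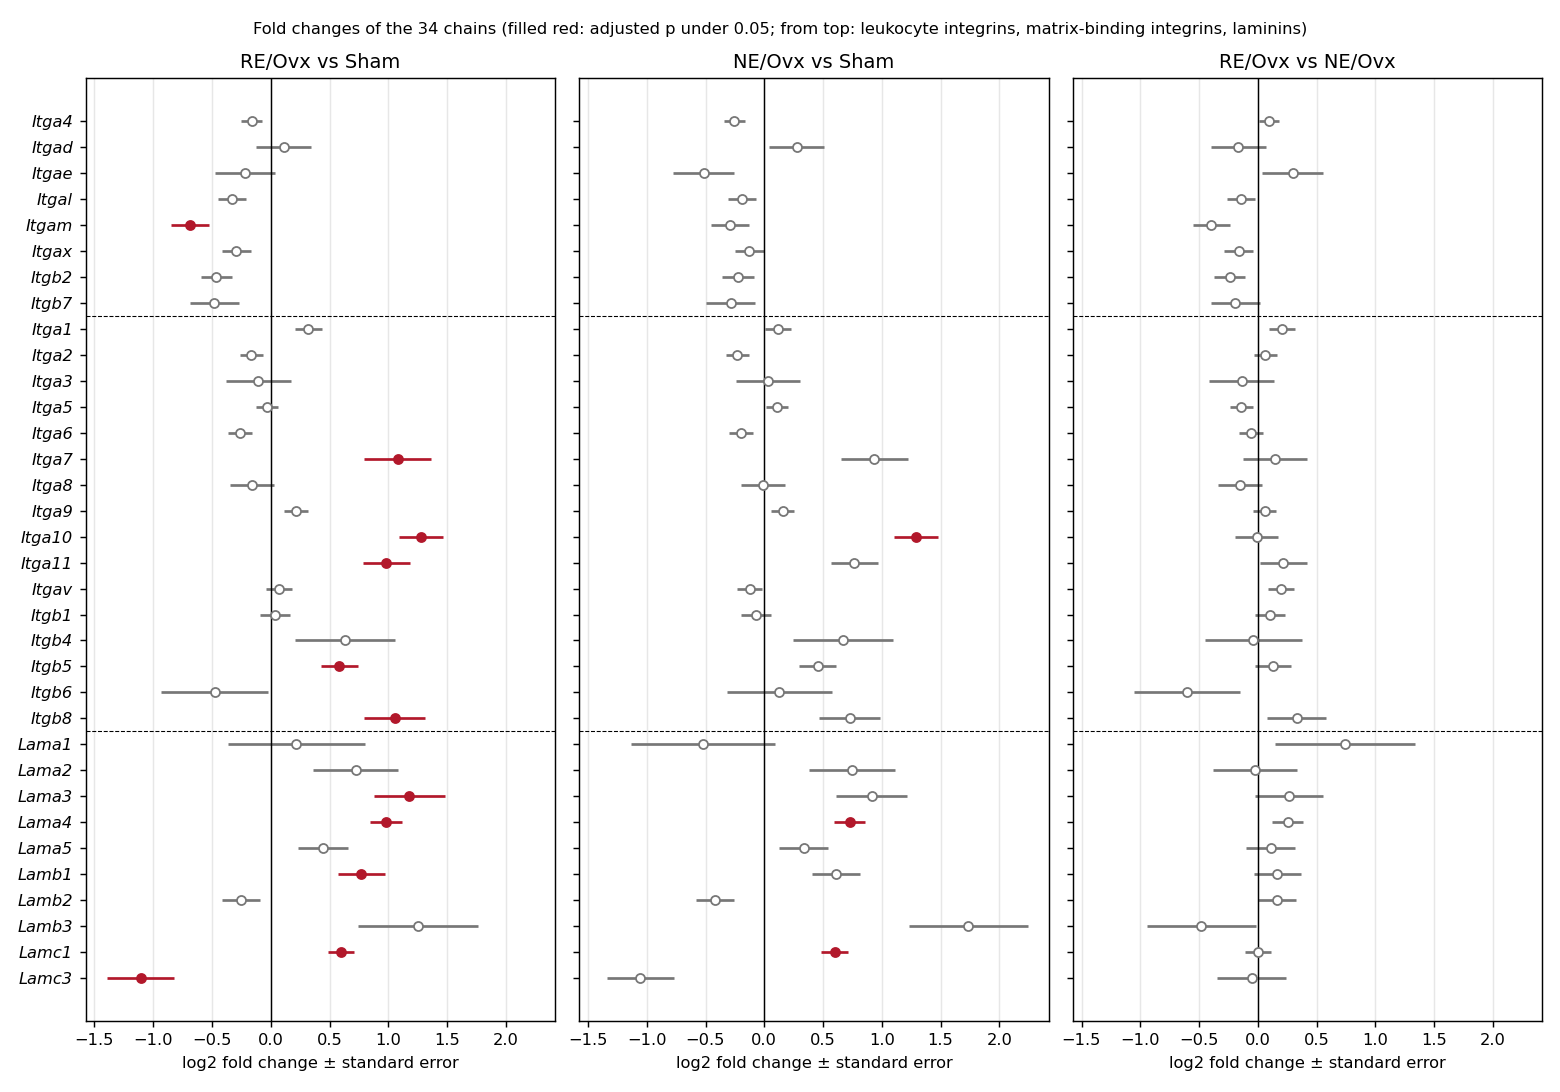
Log2 fold change (x axis) with its standard error for all 34 chains in RE/Ovx against Sham, NE/Ovx against Sham and RE/Ovx against NE/Ovx rats. Filled red points passed the adjusted threshold: 11 chains in RE/Ovx against Sham, 3 in NE/Ovx against Sham and 0 in RE/Ovx against NE/Ovx rats.

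Promoter sequence was at hand for 27 of the 34 chains (RefSeq, build GRCr8, 250 bases before to 50 bases after the annotated start), and 4 are shown because the report turns on these genes. Itga10, Lama4 and Lamc1 passed the adjusted threshold in both groups of ovariectomized rats, and Itgam was the leukocyte chain that passed it. The Itga10 window is chr2:186871461-186871760 on the + strand, that of Lama4 chr20:43946648-43946947 on the + strand, that of Lamc1 chr13:68051937-68052236 on the - strand and that of Itgam chr1:192089342-192089641 on the + strand. Capitals mark matches on either strand to 6 motifs: the GC box GGGCGG, the PU.1 core GAGGAA, the AP-1 site TGANTCA, the estrogen response element (GGTCA and TGACC with any 3 bases between them), the SOX core ACAATG and the TATA box TATAAA.
Itga10: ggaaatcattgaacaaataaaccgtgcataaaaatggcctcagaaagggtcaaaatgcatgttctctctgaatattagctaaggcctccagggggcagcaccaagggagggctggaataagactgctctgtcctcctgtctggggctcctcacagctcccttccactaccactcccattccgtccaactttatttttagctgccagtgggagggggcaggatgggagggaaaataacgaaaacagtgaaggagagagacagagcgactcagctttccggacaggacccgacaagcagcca
Lama4: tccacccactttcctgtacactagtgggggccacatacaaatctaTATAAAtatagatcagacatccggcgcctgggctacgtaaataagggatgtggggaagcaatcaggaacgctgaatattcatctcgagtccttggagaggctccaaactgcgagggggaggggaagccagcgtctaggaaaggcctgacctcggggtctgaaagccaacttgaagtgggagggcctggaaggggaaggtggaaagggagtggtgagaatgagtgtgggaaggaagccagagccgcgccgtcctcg
Lamc1: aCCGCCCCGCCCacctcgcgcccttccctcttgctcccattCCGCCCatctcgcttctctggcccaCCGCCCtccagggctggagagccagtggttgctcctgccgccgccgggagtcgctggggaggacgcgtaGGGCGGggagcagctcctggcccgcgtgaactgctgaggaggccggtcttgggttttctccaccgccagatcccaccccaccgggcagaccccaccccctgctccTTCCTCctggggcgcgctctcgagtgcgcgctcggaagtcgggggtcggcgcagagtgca
Itgam: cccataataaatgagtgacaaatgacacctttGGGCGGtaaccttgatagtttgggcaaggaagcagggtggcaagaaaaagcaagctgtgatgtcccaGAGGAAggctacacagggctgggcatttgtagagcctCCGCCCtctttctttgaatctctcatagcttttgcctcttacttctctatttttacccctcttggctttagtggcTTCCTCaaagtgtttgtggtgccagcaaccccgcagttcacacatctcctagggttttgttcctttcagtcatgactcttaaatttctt
The Lamc1 window held 6 matches, 5 of them GC boxes, the first pair of which overlap by 1 base, and 1 of them a PU.1 core. That of Itgam held 2 GC boxes and 2 PU.1 cores, the letters bound by a factor of myeloid cells. The Lama4 window held a single TATA box match, which began at position -205 from the start, and the Itga10 window held no match to any of the 6 motifs. GC boxes were in 15 of the 27 windows of chains, against 33.1% of 33469 rat promoter windows, and PU.1 cores in 12, against 27.6%. The leukocyte chains with a window were Itga4, Itgae, Itgam, Itgax and Itgb7, and of these Itgae and Itgam held a PU.1 core. The rest of those 12 were matrix-binding integrin and laminin chains. Itgad, Itgal and Itgb2 had no window. The AP-1 letters were in 2 (Itgax, and Lama3 with 3 matches), against 7.33%, and TATA boxes in 2 (Itgb7 and Lama4), against 14.2%. The estrogen response element was in 0 of the 27 and in 0.0269% of all windows, and the SOX core in 0 and in 13.2%. These are matches of letters in a window of a later build than the one used for the counts, and neither a match nor its absence describes binding.

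Of the 4 collagen receptor chains, Itga10 and Itga11 passed against Sham. Itga10, a collagen-binding chain known chiefly from chondrocytes, was at 58.8, 81.5 and 72.9 CPM in the RE/Ovx rats, 51.6, 79.4 and 83.7 CPM in the NE/Ovx rats, and 26.7, 30.8 and 30.4 CPM in the Sham rats. Every rat of both ovariectomized groups lay above every Sham rat. Its log2 fold change was 1.28 in RE/Ovx against Sham (standard error 0.18, adjusted p = 0.00972) and 1.29 in NE/Ovx against Sham (standard error 0.18, adjusted p = 0.0213), the largest among the chains that passed in each comparison. The RE/Ovx call held without any single rat (adjusted p at most 0.0462), whereas the NE/Ovx call did not survive the removal of Sham rat 7, Sham rat 12, NE/Ovx rat 8 or NE/Ovx rat 9 (highest adjusted p = 0.0876). Marker genes of chondrocytes moved the same way: the 9 genes of that list, 7 of them tested, none at 0 counts throughout, and Cnmd not among the listed genes, summed to 2120 to 2320 CPM in the RE/Ovx rats, 1640 to 2550 CPM in the NE/Ovx rats and 710 to 1410 CPM in the Sham rats, with 3 of 7 past the threshold in RE/Ovx and 2 of 7 in NE/Ovx against Sham. Their part in the Itga10 result was not tested.

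Itga11, a collagen receptor chain of fibroblasts and mesenchymal stromal cells, was at 36.1, 66.6 and 56.4 CPM in the RE/Ovx rats, 45.6, 45.2 and 45.8 CPM in the NE/Ovx rats, and 23.7, 24.7 and 32.1 CPM in the Sham rats. The Sham rats were again lowest without overlap, and the 3 NE/Ovx rats were close to each other. The gene rose in RE/Ovx against Sham (log2 fold change 0.98, standard error 0.20, adjusted p = 0.0219), and in NE/Ovx against Sham its log2 fold change of 0.77 did not pass edgeR's test (adjusted p = 0.0870). DESeq2 called the NE/Ovx difference (adjusted p = 0.0132), as did a fit of those 2 groups alone (adjusted p = 0.0480). The RE/Ovx call was lost without Sham rat 7 or 8 or RE/Ovx rat 5 or 8 (highest adjusted p = 0.0845), and in the fit of 2 groups alone (adjusted p = 0.0501). The stromal list, all 6 genes tested and none at 0, summed to 2360 to 5010 CPM in the RE/Ovx rats, 2680 to 3530 CPM in the NE/Ovx rats and 1670 to 2280 CPM in the Sham rats, with 2 and 0 genes past the threshold against Sham, and its part in this result was not tested. The other collagen receptor chains, Itga1 and Itga2, did not pass in any comparison: their log2 fold changes were 0.32 and -0.17 in RE/Ovx against Sham and 0.12 and -0.23 in NE/Ovx against Sham.

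Itga7, the laminin receptor chain of muscle, was at 16.2, 27.1 and 22.9 CPM in the RE/Ovx rats, 19.0, 18.3 and 22.7 CPM in the NE/Ovx rats, and 11.3, 5.96 and 14.1 CPM in the Sham rats. The lowest value of either ovariectomized group, 16.2 CPM, was above the highest Sham value. The RE/Ovx difference passed (log2 fold change 1.08, standard error 0.28, adjusted p = 0.0453), though not without Sham rat 7 or 8 or RE/Ovx rat 5 or 8 (highest adjusted p = 0.164), and the NE/Ovx difference of 0.94 did not in edgeR's test (adjusted p = 0.115), while DESeq2 called it (adjusted p = 0.0284). The fit of the RE/Ovx and Sham rats alone did not call the RE/Ovx difference (adjusted p = 0.0816). Skeletal muscle genes, 11 of 11 tested and none at 0, did not follow that order: they summed to 6250 to 9340 CPM in the RE/Ovx rats, 13100 to 16600 CPM in the NE/Ovx rats and 4890 to 14800 CPM in the Sham rats, and 0 of them passed the threshold in any comparison by edgeR (at the criterion of the study 6 were lower in RE/Ovx than in Sham rats and 9 lower in RE/Ovx than in NE/Ovx rats). Smooth muscle and pericyte genes, 8 of 8 tested, summed to 380 to 638, 553 to 658 and 304 to 473 CPM in RE/Ovx, NE/Ovx and Sham rats, with Notch3 the gene that passed, in RE/Ovx against Sham. The part of either list was not tested.

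The β chains Itgb5 and Itgb8, which pair with Itgav, also rose in the RE/Ovx rats. Itgb5, a vitronectin receptor chain, was at 95.5, 156 and 121 CPM in the RE/Ovx rats, 106, 108 and 125 CPM in the NE/Ovx rats, and 85.7, 76.6 and 86.0 CPM in the Sham rats. Itgb8, which takes part in the activation of latent TGF-β, was at 5.85, 6.04 and 8.67 CPM in the RE/Ovx rats, 3.89, 5.60 and 6.85 CPM in the NE/Ovx rats, and 3.58, 3.14 and 3.17 CPM in the Sham rats. For both chains all 6 ovariectomized rats exceeded the Sham rats. In RE/Ovx against Sham the log2 fold changes were 0.58 (standard error 0.16, adjusted p = 0.0497) and 1.05 (standard error 0.26, adjusted p = 0.0372), and in NE/Ovx against Sham 0.45 (adjusted p = 0.152) and 0.73 (adjusted p = 0.160). Both RE/Ovx calls held only without RE/Ovx rat 3, and were lost without any one of the other 5 rats (highest adjusted p = 0.164 for Itgb5 and adjusted p = 0.142 for Itgb8). Both were also lost in the fit of 2 groups alone (adjusted p = 0.0845 and 0.0501), and that of Itgb8 with limma on log2(FPKM + 1) and log2(FPKM + 0.1) (adjusted p = 0.0612 and 0.0584).

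The most abundant matrix-binding chains did not pass. Itgb1 was at 332, 353 and 352 CPM in the RE/Ovx rats, 302, 302 and 360 CPM in the NE/Ovx rats, and 387, 348 and 276 CPM in the Sham rats, with all 3 groups overlapping (log2 fold change 0.04 in RE/Ovx and -0.07 in NE/Ovx against Sham). Itga6 was at 200.2, 187 and 223 CPM in the RE/Ovx rats, 228, 209.6 and 199 CPM in the NE/Ovx rats, and 246, 265 and 221 CPM in the Sham rats, and its log2 fold changes were -0.26 (adjusted p = 0.138) and -0.20 (adjusted p = 0.297). Itgav, the partner of Itgb5 and Itgb8, was at 236, 276 and 272 CPM in the RE/Ovx rats, 234, 218 and 233 CPM in the NE/Ovx rats, and 223, 285 and 239 CPM in the Sham rats. None of these 3 chains separated both ovariectomized groups from the Sham rats. The 11 matrix-binding chains that did not pass in RE/Ovx against Sham had log2 fold changes between -0.48 (Itgb6) and 0.63 (Itgb4), the widest errors being those of the same pair of chains (standard errors 0.46 and 0.42). Besides the chains above they were Itga3, a laminin receptor chain, Itga5, of the fibronectin receptor, Itga8 and Itga9, which bind nephronectin and tenascin, Itgb4, of hemidesmosomes, and Itgb6, which activates TGF-β in epithelia.

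**Figure D3:**
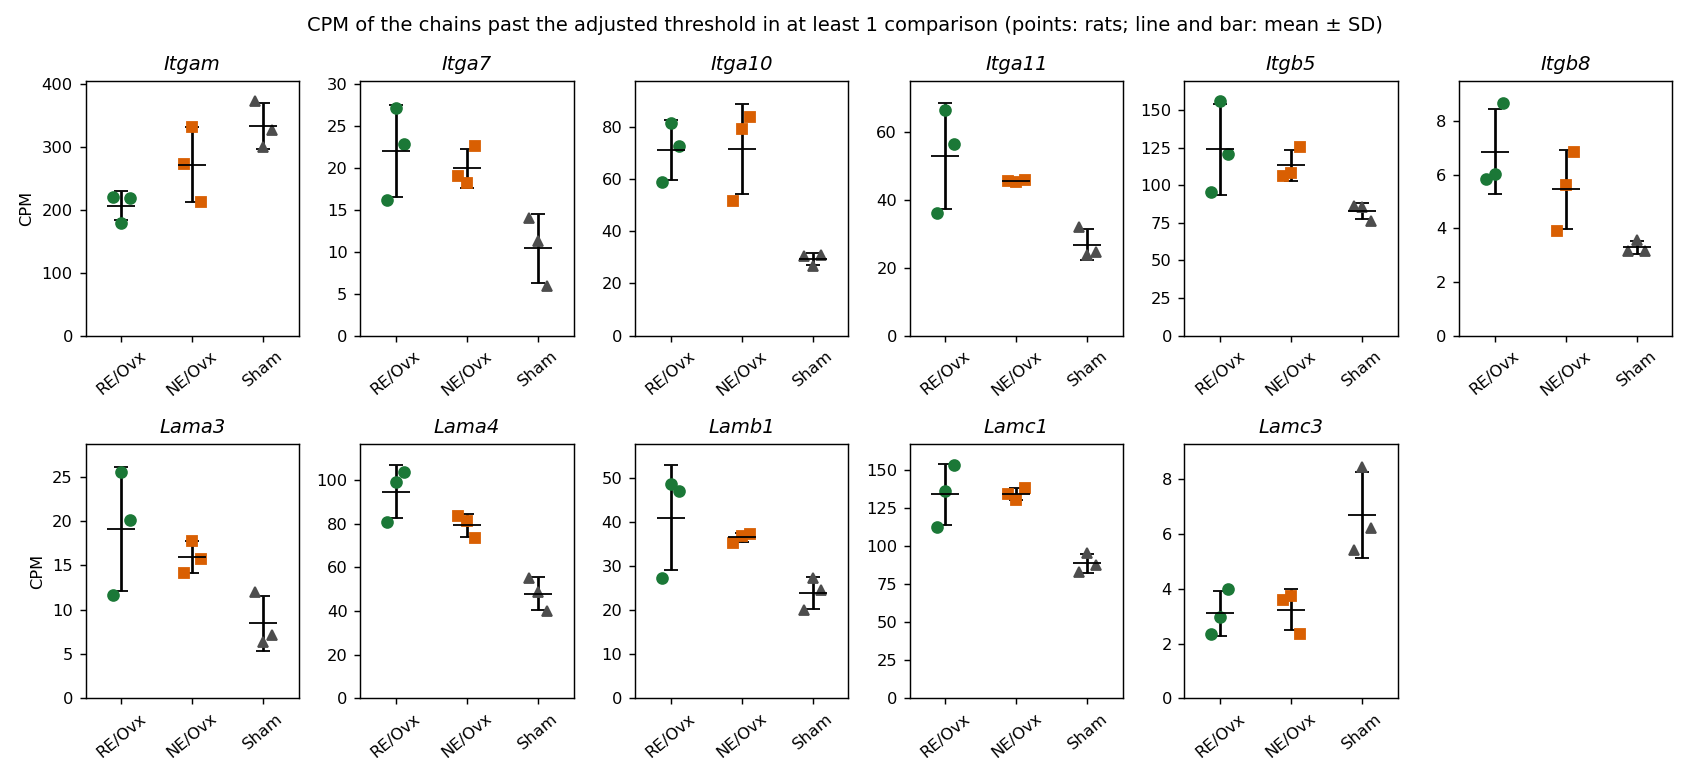
CPM of the 11 chains that passed the adjusted threshold in RE/Ovx against Sham rats, 3 of which also passed in NE/Ovx against Sham rats. Points are rats, lines the group means and bars the SD (n = 3 a group). Sham rats were lowest in 9 panels by group mean and highest in those of Itgam and Lamc3.

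Of the 5 laminin α chains, Lama4 and Lama3 passed against Sham. Lama4, the α chain of laminins around vessels and fat cells, was at 80.7, 99.3 and 104 CPM in the RE/Ovx rats, 83.3, 81.3 and 73.3 CPM in the NE/Ovx rats, and 48.6, 40.2 and 55.0 CPM in the Sham rats. The Sham rats were lowest without overlap. Its log2 fold change was 0.98 in RE/Ovx against Sham (standard error 0.13, adjusted p = 0.0081), which held without any single rat (adjusted p at most 0.0408), and 0.73 in NE/Ovx against Sham (standard error 0.13, adjusted p = 0.0347), which was lost without any one of the 6 rats (highest adjusted p = 0.118).

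Lama3, an α chain of epithelial basement membranes, was at 11.7, 25.5 and 20.1 CPM in the RE/Ovx rats, 14.2, 17.8 and 15.8 CPM in the NE/Ovx rats, and 6.33, 7.09 and 12 CPM in the Sham rats. RE/Ovx rat 3 lay just under the highest Sham rat, so these groups overlapped, and the NE/Ovx rats were all above the Sham rats. The log2 fold changes were 1.18 in RE/Ovx against Sham (standard error 0.30, adjusted p = 0.0428) and 0.91 in NE/Ovx against Sham (adjusted p = 0.138), the RE/Ovx call being lost without Sham rat 7 or 8 or RE/Ovx rat 5 or 8 (highest adjusted p = 0.160), in the fit of 2 groups alone (adjusted p = 0.0803) and in all 3 limma settings (adjusted p between 0.0617 and 0.0701). Markers of epithelia were scarce: 3 of 9 were tested, Krt5 was at 0 counts in every rat, and the list summed to 70.2 to 88.1 CPM in the RE/Ovx rats, 78.7 to 87.9 CPM in the NE/Ovx rats and 64.8 to 95 CPM in the Sham rats, with 0 genes past the threshold in edgeR's test and 0 by the criterion of the study. Most of that sum was Cdh1, at means of 71.25, 79.43 and 77.92 CPM in RE/Ovx, NE/Ovx and Sham rats, so it says little of the other markers. The remaining α chains did not pass: Lama2, the α chain around muscle fibres and nerves, had log2 fold changes of 0.72 in RE/Ovx and 0.75 in NE/Ovx against Sham, and Lama5, of vessels and epithelia, 0.45 and 0.33, while Lama1 was too scarce for a difference to be detected (0.22, standard error 0.58, and -0.52, standard error 0.61).

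The β chains went different ways. Lamb1 was at 27.2, 48.6 and 46.9 CPM in the RE/Ovx rats, 35.2, 36.9 and 37.3 CPM in the NE/Ovx rats, and 27.2, 24.5 and 20 CPM in the Sham rats, with RE/Ovx rat 3 level with the highest Sham rat. It rose in RE/Ovx against Sham (log2 fold change 0.77, standard error 0.20, adjusted p = 0.0462), a call that held only without RE/Ovx rat 3 and was lost without any one of the other 5 rats (highest adjusted p = 0.170), in the fit of 2 groups alone (adjusted p = 0.0864) and in all 3 limma settings (adjusted p between 0.0596 and 0.0658). In NE/Ovx against Sham the Lamb1 difference of 0.61 had an adjusted p of 0.139. Lamb2, the β chain of mature vessel and synaptic basement membranes, was at 119, 138 and 146 CPM in the RE/Ovx rats, 90.3, 133 and 137 CPM in the NE/Ovx rats, and 146, 186 and 150.1 CPM in the Sham rats. Its values were lowest on average in the NE/Ovx rats, which did not overlap the Sham rats, and the log2 fold changes of -0.25 in RE/Ovx and -0.42 in NE/Ovx against Sham did not pass (adjusted p = 0.366 and 0.189). Lamb3, a β chain of epithelial laminin, had the largest log2 fold change of all chains in NE/Ovx against Sham, 1.73 (standard error 0.50, adjusted p = 0.107), and one of 1.25 in RE/Ovx against Sham (adjusted p = 0.157), at only 0.403 to 4.29 CPM over the 9 rats. DESeq2 called the NE/Ovx difference of Lamb3 (adjusted p = 0.0234).

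The γ chains were opposed. Lamc1, the γ chain of most laminins, was at 113, 136 and 153 CPM in the RE/Ovx rats, 134, 131 and 138 CPM in the NE/Ovx rats, and 95.4, 87.8 and 83.0 CPM in the Sham rats. Lamc3, the γ chain with the narrower range of tissues, was at 2.35, 2.98 and 3.98 CPM in the RE/Ovx rats, 3.60, 3.74 and 2.36 CPM in the NE/Ovx rats, and 8.46, 6.21 and 5.42 CPM in the Sham rats. No ovariectomized rat overlapped the Sham rats for either gene, Lamc1 being above and Lamc3 below. Lamc1 rose by 0.60 on the log2 scale in RE/Ovx against Sham (standard error 0.11, adjusted p = 0.0172) and by 0.60 in NE/Ovx against Sham (standard error 0.11, adjusted p = 0.0386). The first call was lost without RE/Ovx rat 5 or 8 (highest adjusted p = 0.0676) and the second without any one of the 6 rats (highest adjusted p = 0.118), and the second also with limma on log2(FPKM + 1) (adjusted p = 0.0513). Lamc3 fell by 1.11 on the log2 scale in RE/Ovx against Sham (standard error 0.29, adjusted p = 0.0435), which held only without Sham rat 12 (highest adjusted p = 0.141 otherwise). That call was also lost with library totals (adjusted p = 0.0551), in the fit of 2 groups alone (adjusted p = 0.0627) and with limma on log2(FPKM + 1) and log2(FPKM + 0.1) (adjusted p = 0.0601 and 0.0744). In NE/Ovx against Sham the log2 fold change of Lamc3 was -1.06, which edgeR did not call (adjusted p = 0.0912) and DESeq2 did (adjusted p = 0.0180). Lamc3 had 35 to 123 counts a rat.

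Some related chains moved in opposite directions and others by different amounts, so their FPKM were also set against each other within each library. This choice was made after the values were seen, and the ratios are therefore given with no test. Lamb2 over Lamb1 was 5.02, 3.26 and 3.57 in the RE/Ovx rats, 2.93, 4.13 and 4.21 in the NE/Ovx rats, and 6.14, 8.67 and 8.59 in the Sham rats. Lamc3 over Lamc1 was 0.0235, 0.0247 and 0.0293 in the RE/Ovx rats, 0.0303, 0.0323 and 0.0193 in the NE/Ovx rats, and 0.1, 0.0797 and 0.0736 in the Sham rats. Lama5 over Lama4 was 0.0905, 0.116 and 0.131 in the RE/Ovx rats, 0.112, 0.134 and 0.133 in the NE/Ovx rats, and 0.161, 0.168 and 0.167 in the Sham rats. Lama5 did not fall: its log2 fold changes were 0.45 in RE/Ovx and 0.33 in NE/Ovx against Sham. Those of Lama4 were larger, at 0.98 and 0.73. Each of the 3 laminin ratios was lower in all 6 ovariectomized rats than in any Sham rat. No scaling between libraries enters the ratios, but they restate values given above and are not separate evidence. For Lamc3 over Lamc1 the separation follows from that of the 2 chains themselves.

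**Figure D4:**
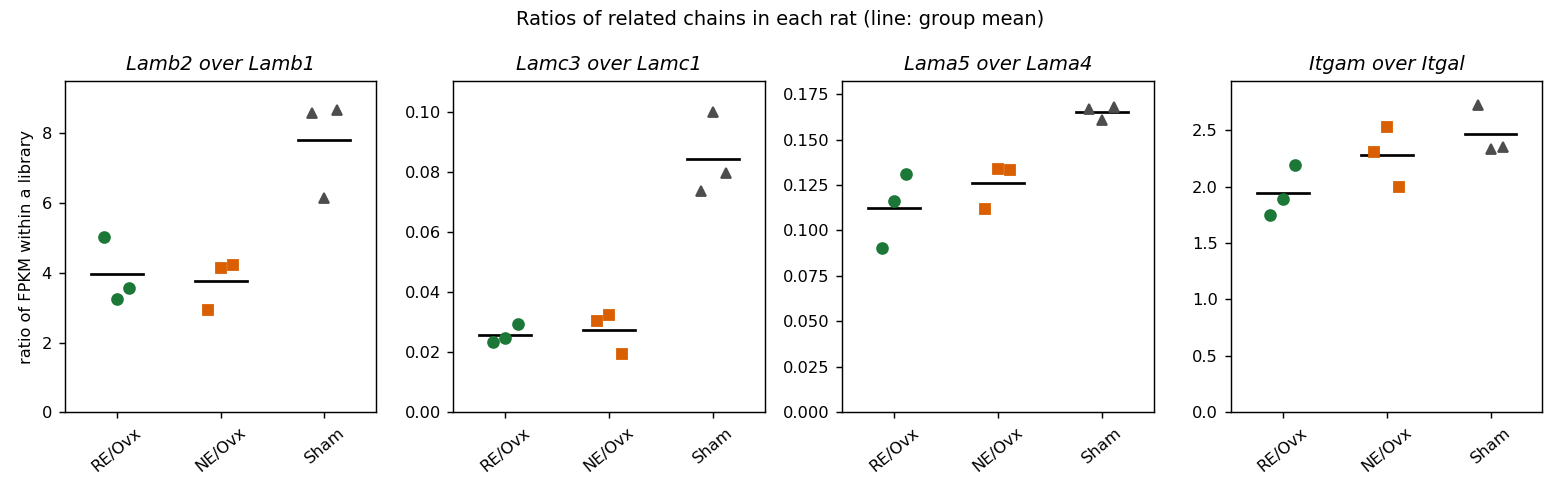
Ratio of FPKM of related chains within each library (y axes start at 0). Points are rats and lines group means for RE/Ovx, NE/Ovx and Sham. The laminin ratios of all 6 ovariectomized rats lay below those of the 3 Sham rats, and Itgam over Itgal did so in the RE/Ovx rats.

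Summed, the 10 laminin chains were at 387 to 533 CPM in the RE/Ovx rats, 410 to 462 CPM in the NE/Ovx rats and 368 to 374 CPM in the Sham rats. Marker lists of cells that carry basement membranes were set beside them. Adipocyte and endothelial sums lay above the Sham rats in both ovariectomized groups, and those of smooth muscle and pericytes in the NE/Ovx rats only. Skeletal muscle and Schwann cell sums overlapped the Sham rats in both groups. Smooth muscle and pericyte genes, whose sums are given above, had a median log2 fold change of 0.73 in RE/Ovx against Sham, 7 of 8 being positive. In NE/Ovx against Sham it was 0.82, 8 of 8 being positive. Adipocyte genes, 10 of 10 tested and none at 0, summed to 506 to 711, 379 to 516 and 96.6 to 226 CPM in RE/Ovx, NE/Ovx and Sham rats, with 10 of 10 higher in RE/Ovx and 5 of 10 higher in NE/Ovx against Sham. Endothelial genes, 11 of 12 tested and none at 0, summed to 452 to 610, 479 to 496 and 405 to 423 CPM, and 2 of 11 (Tek and Pecam1) were higher in RE/Ovx against Sham. None of the endothelial genes passed in NE/Ovx against Sham in edgeR's test, 3 having been higher by the criterion of the study. Skeletal muscle genes, whose sums are given above, had a median log2 fold change of -0.83 in RE/Ovx against Sham, 11 of 11 being negative. In NE/Ovx against Sham their median was 0.20, 10 of 11 being positive. Schwann cell genes, 5 of 6 tested and none at 0, summed to 134 to 161, 112 to 139 and 119 to 136 CPM in RE/Ovx, NE/Ovx and Sham rats and overlapped. Their median log2 fold change was 0.08 in RE/Ovx and 0.26 in NE/Ovx against Sham, with 3 positive and 2 negative in each. S100b was the gene that passed, higher in both comparisons, and by the criterion of the study 1 gene was lower in NE/Ovx against Sham. The part of these cell types in the laminin results was not tested.

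Of the leukocyte integrins, the α chain of the complement receptor of neutrophils and macrophages was the one that fell. Itgam was at 221, 180.1 and 219.9 CPM in the RE/Ovx rats, 273, 332 and 213 CPM in the NE/Ovx rats, and 301, 327 and 373 CPM in the Sham rats. The RE/Ovx rats lay below the Sham rats without overlap, and the NE/Ovx rats spanned the gap between them. The log2 fold change was -0.69 in RE/Ovx against Sham (standard error 0.16, adjusted p = 0.0317) and -0.29 in NE/Ovx against Sham (adjusted p = 0.334). The RE/Ovx call was lost without Sham rat 8 or 12 or RE/Ovx rat 5 or 8 (highest adjusted p = 0.125), and in all 3 limma settings (adjusted p between 0.0554 and 0.0586).

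Itgb2, the β chain that Itgam, Itgal, Itgax and Itgad share, was at 162, 117 and 150.3 CPM in the RE/Ovx rats, 166, 178 and 163 CPM in the NE/Ovx rats, and 225, 197 and 170.0 CPM in the Sham rats. It was lowest in RE/Ovx rat 5, and the RE/Ovx rats did not overlap either other group. Its log2 fold changes were -0.46 in RE/Ovx (adjusted p = 0.0633) and -0.22 in NE/Ovx against Sham (adjusted p = 0.380), and DESeq2 called the first. Itga4 was at 363, 311 and 305 CPM in the RE/Ovx rats, 298, 315 and 305 CPM in the NE/Ovx rats, and 364, 362 and 369 CPM in the Sham rats. It was the leukocyte chain with the smallest unadjusted p in NE/Ovx against Sham (log2 fold change -0.26, adjusted p = 0.153), and the NE/Ovx rats did not overlap the Sham rats, whose 3 values were close. The 7 leukocyte chains that did not pass in RE/Ovx against Sham had log2 fold changes between -0.48 (Itgb7, of gut-homing lymphocytes) and 0.11 (Itgad, of tissue macrophages), with Itgae, which binds E-cadherin, at -0.22.

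The 8 leukocyte chains summed to 907 to 1110 CPM in the RE/Ovx rats, 1020 to 1220 CPM in the NE/Ovx rats and 1290 to 1300 CPM in the Sham rats, so that the Sham rats were highest. Neutrophil genes, 12 of 13 tested and none at 0, were ordered likewise: they summed to 4160 to 6500 CPM in the RE/Ovx rats, 5690 to 6580 CPM in the NE/Ovx rats and 7670 to 12900 CPM in the Sham rats, with 7 of 12 lower in RE/Ovx against Sham. In NE/Ovx against Sham 0 of them passed edgeR's test, 6 having been lower by the criterion of the study. Genes of monocytes and macrophages, 11 of 12 tested and Marco at 0, summed to 535 to 639, 591 to 648 and 469 to 790 CPM in RE/Ovx, NE/Ovx and Sham rats and overlapped. T and NK cell genes, 10 of 11 tested and none at 0, summed to 158 to 172, 176 to 190 and 142 to 226 CPM, and B cell genes, 10 of 10 tested and none at 0, to 854 to 1040, 699 to 1140 and 194 to 582 CPM. The B cell genes went the other way from the leukocyte chains, with a median log2 fold change of 1.21 in RE/Ovx against Sham, 10 of 10 positive and 3 past the threshold (Blnk, Cd22, Ebf1), and in NE/Ovx against Sham 8 were higher by the criterion of the study and 0 passed edgeR's test. The T and NK cell genes had a median log2 fold change of 0.34 in RE/Ovx against Sham, with 8 of 10 positive. By the criterion of the study 2 of them were higher and 1 lower. Nkg7, which fell, was the gene of that list past the adjusted threshold. The part of these lists in the leukocyte chains was not tested. Set against Itgal, the α chain found on nearly all leukocytes, Itgam stood at a ratio of 1.75, 1.89 and 2.19 in the RE/Ovx rats, 2.31, 2.53 and 2 in the NE/Ovx rats, and 2.33, 2.35 and 2.72 in the Sham rats (FPKM within a library, chosen after the values were seen).

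Exercise was addressed by setting the RE/Ovx against the NE/Ovx rats. With edgeR 0 of the 34 chains passed the adjusted threshold, and 0 of all 14520 tested genes did (background 0%). DESeq2 and limma also called 0 chains, DESeq2 calling 5 of all genes. Itgam was the single chain with an unadjusted p under 0.05 (log2 fold change -0.40, standard error 0.16, adjusted p = 0.924), where 5.28% of all tested genes had one, and its groups overlapped. The smallest unadjusted p among the laminins was that of Lama4 (log2 fold change 0.25, standard error 0.13, adjusted p = 0.948) and among the matrix-binding chains that of Itgav (0.20, standard error 0.11, adjusted p = 0.959). At the fold change criterion of the study 0 chains were higher and 1, Itgam, was lower, with 1.54% and 3.15% of all tested genes and 4.68% in either direction. The groups did not overlap for 3 chains, Itga1 and Itgav above (background 4.75%) and Itgb2 below (background 6.84%), and for 11.6% of all tested genes. Over the 34 chains the log2 fold changes ran between -0.60 (Itgb6, standard error 0.45) and 0.74 (Lama1, standard error 0.60), and a p that misses the threshold does not show that the groups were alike. The skeletal muscle sums given above did not overlap between these groups, lower in the RE/Ovx rats, and their part in any difference was not tested.

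RE/Ovx rat 3 held the lowest value of its group in all 9 of the chains that rose against Sham. Without that rat 13 chains passed in RE/Ovx against Sham, 10 higher and 3 lower, Itgal, Itgb2 and Lama5 being added and Lamc3 lost. Without RE/Ovx rat 5 or rat 8 only Itga10 and Lama4 passed, without Sham rat 7 the count was 4, without Sham rat 8 it was 3, and without Sham rat 12 it was 8. In NE/Ovx against Sham, Itga10 passed alone without Sham rat 8 or NE/Ovx rat 6, and 0 chains passed by edgeR without any one of the other 4 rats. In the heat map, RE/Ovx rat 3 is paler than rats 5 and 8 over the laminin block, where its sum of 387 CPM was nearest to the Sham rats.

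**Figure D5:**
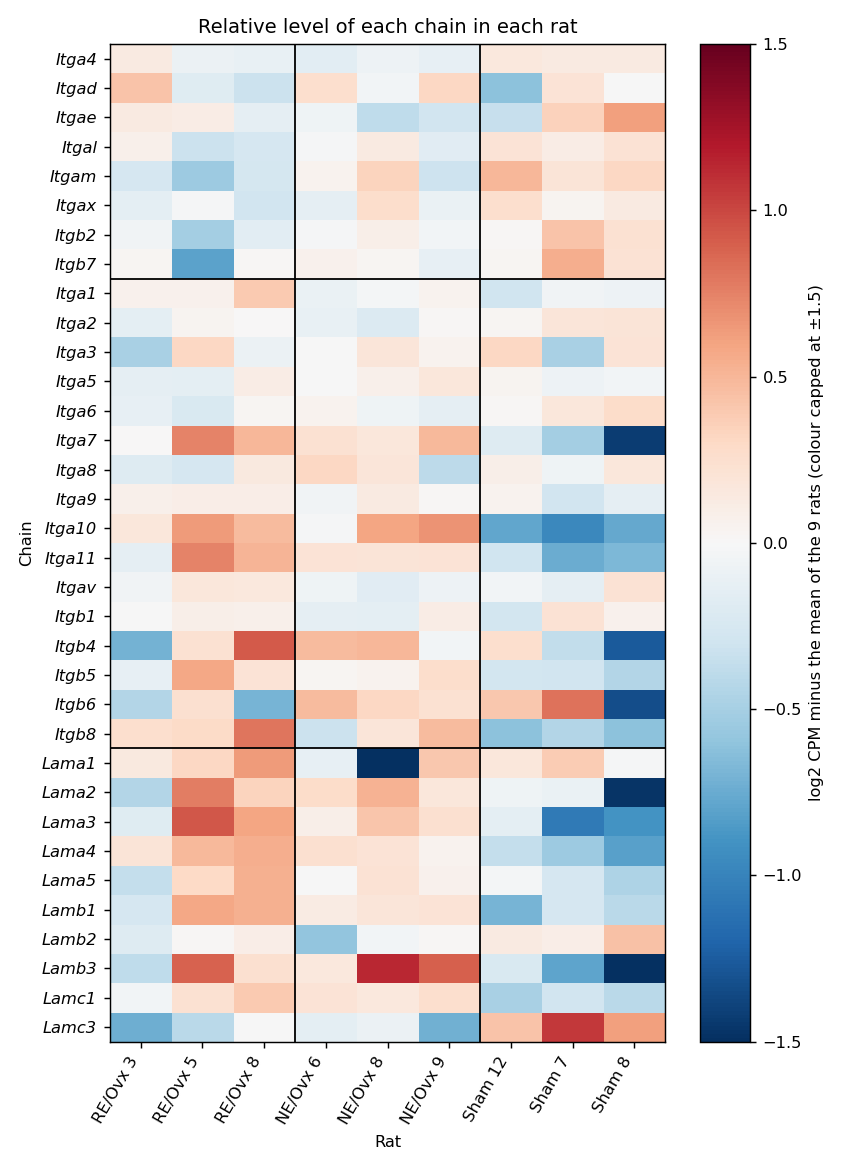
Log2 CPM of each chain minus its mean over the 9 rats (colour, capped at 1.5 on either side), rats in columns and chains in rows, with lines between groups and between leukocyte integrins, matrix-binding integrins and laminins. The Sham columns are blue for most laminins and red for most leukocyte integrins, and Lamc3 and Lamb2 run the other way from most laminins.

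Genes that act with these chains were taken from 3 lists. Of 25 basement membrane partners, 24 were tested, none was at 0, 8 rose and 0 fell in RE/Ovx against Sham, and 5 rose and 0 fell in NE/Ovx against Sham, where 5.0% and 1.03% of all tested genes rose. Col4a1 and Col4a2, the collagen chains of the basement membrane sheet, had the smallest p in both, and Sparc, a matrix protein that binds collagen, had larger log2 fold changes (1.52 in RE/Ovx and 1.40 in NE/Ovx against Sham, adjusted p = 0.0129 and 0.0331). Col4a1 was at 204 ± 57.9 CPM in the RE/Ovx rats, 192 ± 23.1 CPM in the NE/Ovx rats and 79.6 ± 9.47 CPM in the Sham rats (mean ± SD, n = 3), with log2 fold changes of 1.36 (adjusted p = 0.0102) and 1.27 (adjusted p = 0.0240). Those of Col4a2 were 1.34 (adjusted p = 0.0113) and 1.22 (adjusted p = 0.0265). The list's median log2 fold change was 0.65 in RE/Ovx and 0.57 in NE/Ovx against Sham.

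Of 28 integrin ligands other than laminins, 24 were tested and Madcam1, Fga, Fgb and Fgg were at 0 in every rat. Col1a1, the main collagen of bone, was at 19940 ± 5002 CPM in the RE/Ovx rats, 19410 ± 4685 CPM in the NE/Ovx rats and 5983 ± 1284 CPM in the Sham rats (mean ± SD, n = 3) and rose in both comparisons, by 1.74 (adjusted p = 0.0102) and 1.70 (adjusted p = 0.0235). Mfge8, a ligand of Itgav receptors that bridges to dying cells, rose in RE/Ovx against Sham (log2 fold change 0.77, adjusted p = 0.0284). These were the 2 and 1 ligands past the threshold, and 0 fell. Against the NE/Ovx rats, Ltbp1, which holds latent TGF-β in the matrix, was the ligand with an unadjusted p under 0.05 and a fold change past 1.2 (log2 fold change 0.34, adjusted p = 0.924).

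All 32 adhesion adaptors and integrin activators were tested, and in RE/Ovx against Sham 4 rose and 4 fell, where 5.0% and 3.06% of all tested genes did. Fermt2, the kindlin of tissue cells, which switches integrins on, was at 112 ± 29.1 CPM in the RE/Ovx rats, 101 ± 9.52 CPM in the NE/Ovx rats and 59.2 ± 6.67 CPM in the Sham rats (mean ± SD, n = 3), and rose by 0.92 on the log2 scale in RE/Ovx against Sham (adjusted p = 0.0192). Parvg, the parvin of blood cells, was at 62.8 ± 7.99, 82.5 ± 1.35 and 91.5 ± 10.1 CPM in the same groups, and fell by 0.54 in RE/Ovx against Sham (adjusted p = 0.0229). In NE/Ovx against Sham 0 adaptors passed edgeR's test, while 5 were higher and 7 lower by the criterion of the study, by which 11.3% and 6.52% of all tested genes were. The smallest p were those of Fermt2 (log2 fold change 0.77, adjusted p = 0.0690) and of Vcl, the actin linker vinculin (-0.33, adjusted p = 0.0758). In RE/Ovx against NE/Ovx the smallest unadjusted p were those of Parvg (log2 fold change -0.39, adjusted p = 0.921) and Pxn, the scaffold paxillin (-0.29, adjusted p = 0.921).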

How the data were processed

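RNA-seq of 9 left tibias (total RNA, ribosomal RNA depleted, stranded kit) was analysed. For each rat the authors deposited read counts (whole numbers) and FPKM per gene. Tools named in the submitters' processing notes are HISAT2, Bowtie2, Trimmomatic, StringTie and DESeq, with the build Rnor_6.0. Their versions, settings and use of strand in counting are not given in the sources used here. FPKM over count differed between libraries by 1 factor (log2 spread 1.4e-08 over 12514 genes).

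Of 22589 genes, 18423 had any count and 14520 passed edgeR's filterByExpr. Counts were tested in R 4.3.3 with edgeR 4.0.16 (TMM, quasi-likelihood test) in 1 fit of all 9 rats with the group as the only term, and p values were adjusted by Benjamini and Hochberg over all tested genes. Per-rat CPM use the TMM-scaled library size. An exact permutation test of 3 rats against 3 reaches no p below 0.1. It was computed for the chain ratios only, and its values are not given because the ratios were chosen after the values were seen. The script was tested on simulated data. Replicates differed by far more than counting noise (chi-square per gene 21.9 or more).

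The 34 members and all lists were chosen with earlier results of these data known. Per-rat values are given for chains past the adjusted threshold, for the smallest p of each class in each comparison and for the 2 most abundant chains of each class by FPKM; Lamb3, the chain ratios and other single members were named after their values were seen. From each list of partners, the 2 smallest p past the threshold are named, or past the study's thresholds where none passed. Alternatives were DESeq2 1.42.0, other scalings, filters and fits, limma 3.58.1 on log2(FPKM + 1) or log2(FPKM + 0.1), and leaving out each rat. Within-library ratios were added after seeing the data. In GRCr8, used for names and promoters only, 18 of the 34 genes overlap another gene, so their reads may be shared. For 6 of them that gene is protein-coding (Itga1, Itga4, Itga7, Itgae, Itgb1, Itgb7). The others overlap noncoding RNA genes or pseudogenes, and Itga11, Lama3, Lama4 and Lamc1 are among them. Other computations used Python 3.11.15, numpy 2.4.6, pandas 2.3.3 and matplotlib 3.10.9.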

Additional observations from a re-analysis of the deposited data

How the results depend on the processing

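In NE/Ovx against Sham, where 3 chains passed, DESeq2 called 7 and leaving out 1 rat gave 0 to 1. In RE/Ovx against Sham, where 11 passed, a fit of the 2 groups alone called 4, limma called 6 on log2(FPKM + 1), 6 on log2(FPKM + 0.1) and 6 with an FPKM of at least 1 in 3 libraries, and leaving out 1 rat gave 2 to 13. In RE/Ovx against NE/Ovx every alternative called 0 chains. The median of the leukocyte chains in RE/Ovx against NE/Ovx, -0.17, was between -0.30 (without RE/Ovx rat 3) and -0.062 (without RE/Ovx rat 5) when 1 rat was left out. Other class medians moved by less than the spread between rats, but some by over 1.5 times. That of the matrix-binding chains, 0.14 in RE/Ovx against Sham, was 0.07 with Itga4 counted among them, and 0.12 in NE/Ovx against Sham was 0.19 without Sham rat 12. That of the laminins in RE/Ovx against Sham, 0.66, was 0.44 with limma on log2(FPKM + 1). In RE/Ovx against NE/Ovx the laminin median, 0.14, was 0.06 with that limma fit and between -0.0031 (without RE/Ovx rat 8) and 0.29 (without RE/Ovx rat 3) with 1 rat left out, and the matrix-binding median, 0.06, between -0.0022 (without RE/Ovx rat 5) and 0.13 (without NE/Ovx rat 9). Of 102 chain differences (34 chains in 3 comparisons), 21 changed sign under at least 1 alternative, the smallest p among them being 0.339. Over all genes DESeq2 called 998 in NE/Ovx against Sham, where edgeR called 178 (9 to 181 with 1 rat left out). In RE/Ovx against Sham, where edgeR called 726 higher and 445 lower (1171 in all), DESeq2 called 1964, a fit of the 2 groups 559, library totals in place of TMM 891 higher and 289 lower, and leaving out 1 rat gave 103 to 1749. The causes were not tested. No paired analysis was made, because the paper states that the rats were divided among the groups at random. The rat number 8 occurs in each group but is not described as a match. With 3 rats a group, and counts as low as 1 for Lama1 and 5 for Lamb3, small differences were not detectable.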

Other observations

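Among the integrin ligands, Col1a2 did not keep step with Col1a1, its partner in type I collagen: Col1a2 was at 800.2, 823 and 1085 CPM in the RE/Ovx rats, 278, 817 and 348 CPM in the NE/Ovx rats, and 96.7, 248 and 580.4 CPM in the Sham rats, a spread within the Sham group that Col1a1 did not show. The FPKM of the 4 α partners of Itgb2 (Itgad, Itgal, Itgam, Itgax) summed to 2.26, 2.60 and 2.18 times that of Itgb2 in the RE/Ovx rats, 2.39, 2.64 and 2.10 times in the NE/Ovx rats, and 1.94, 2.36 and 2.94 times in the Sham rats, which overlapped.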
